A study of Rattus norvegicus with 12 samples.

Results

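The mammary glands of rats that received soy protein isolate together with 17β-estradiol (E2) were compared with those of rats that received neither, fed casein and given vehicle. Soy protein isolate is a soy protein preparation that carries isoflavones, and casein is the milk protein of the control diet. The comparison used 6 of the 12 arrays of the series, 3 pools titled for E2 and soy against 3 titled for casein, and all measured genes. All rats were female Sprague-Dawley rats without their ovaries, and both groups were treated alike otherwise. They ate their diet between postnatal days 30 and 64, lost the ovaries at day 50 and then had a mini-osmotic pump with E2 or vehicle for 14 days. Abdominal mammary gland pairs were frozen at day 64, and total RNA (8 µg) was hybridised to Affymetrix arrays. The remaining 6 arrays, 3 of casein plus E2 and 3 of soy without E2, entered the fit to estimate the spread between pools. Since diet and hormone both differ between the groups compared, the comparison by itself does not separate them, and the single treatments are set beside it further down.

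E2 acts in the mammary gland through its nuclear receptor in a part of the luminal cells, which answer with the progesterone receptor and with amphiregulin, a ligand of the epidermal growth factor receptor that passes the signal to neighbouring cells. Ducts grow and luminal cells prepare for secretion under these signals, within a pad of fat that also holds mast cells, vessels and lymph nodes. Isoflavones of soy can bind estrogen receptors, with a preference for the beta form. RNA was of the whole gland, so fewer cells of a type and less RNA per cell cannot be told apart.

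Each deposited value is a log2 value from which the median of the probe set over the 12 arrays had been subtracted, so 0 is the middle of the series, and neither expression levels nor detection can be read. A gene's value was the mean of its probe sets that carry 1 symbol. The presence of mammary markers could for that reason not be checked as a level. One label field reads hepatic and the source field reads mammary gland for all samples, and genes of the liver were high on 1 array only. The labels do not say that the pools of a group came from separate animals, so a p-value reflects pool-to-pool spread only, and 3 arrays a group limit the precision.

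Some arrays stood apart. Casein pool 3 carried liver transcripts (mean of 28 liver genes 4.64, against -0.30 to 0.23 on the other 11 arrays). Casein pools 1 and 2 carried skeletal muscle transcripts (mean of 38 genes 0.99 and 2.43), as did soy pool 2 (2.47), while the soy plus E2 pools lay between -0.54 and -0.35. Pools 2 and 3 of the casein plus E2 group gave almost identical arrays (SD of their difference 0.163, against 0.301 or more in the 65 other pairs) and were averaged into 1 sample. Soy plus E2 pool 3 had the smallest spread over genes (SD 0.17, against 0.26 to 0.55 on the others), and for many genes it lay nearer to 0 than the other pools of its group. Casein pool 2 had a low mean of 23 luminal genes (-0.68, against -0.06 in both other casein pools). Soy pools 2 and 3, which entered the fit, were low as well (-0.47 and -0.99).

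**Figure D1:**
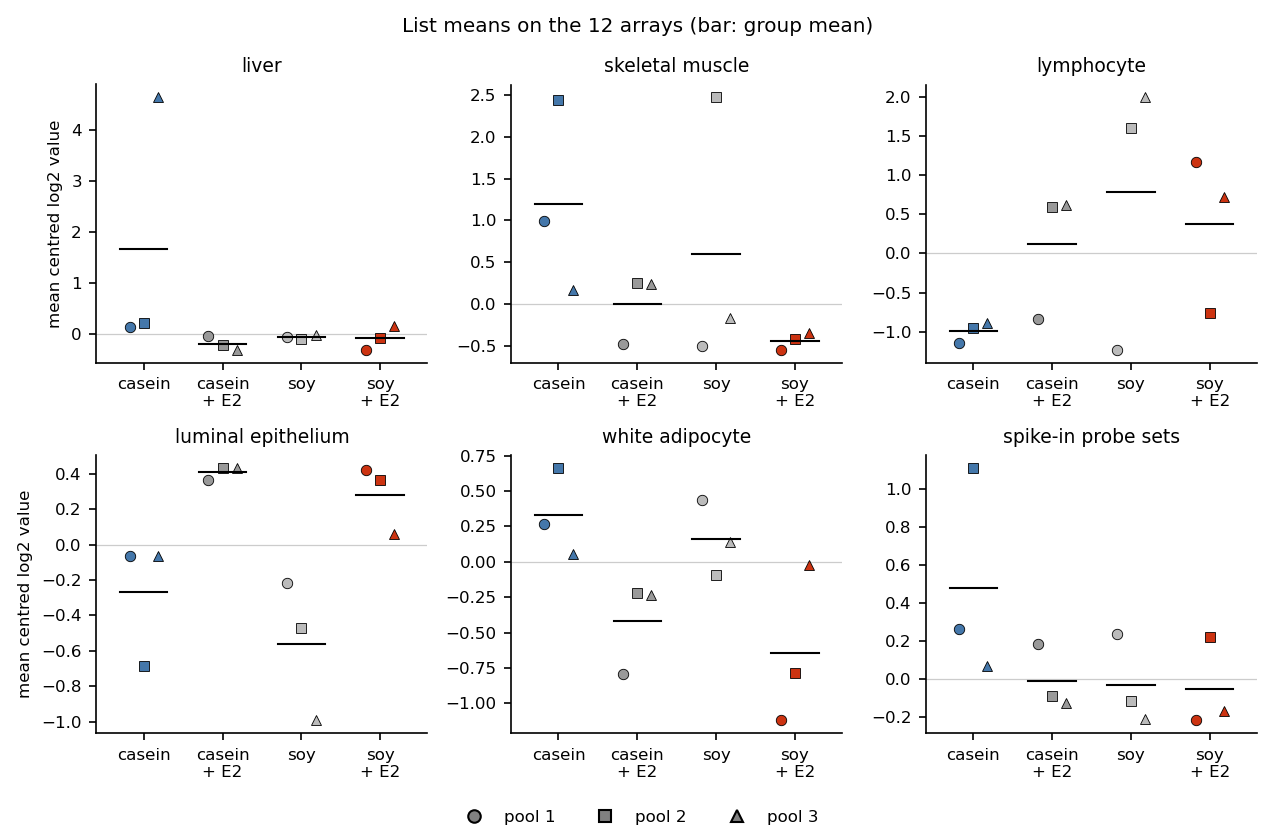
Mean centred log2 value (y axis) of the liver, skeletal muscle, lymphocyte, luminal epithelium and white adipocyte gene lists and of the spike-in probe sets on each of the 12 arrays, by group (x axis), with the mean of 3 arrays as a bar. Casein pool 3 stands alone for liver at 4.64, casein pool 2 and soy pool 2 are high for muscle at 2.43 and 2.47, and soy plus E2 pool 2 lies with the casein pools for lymphocyte genes and spike-ins.

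In the combined treatment 44 of 14217 genes passed the test (limma, Benjamini-Hochberg adjusted p under 0.05), or 0.309% of genes, with 25 higher (0.176%) and 19 lower (0.134%). The median change over all genes was 0.01. Values did not overlap between the 3 soy plus E2 and the 3 casein pools for any of the 44, as for 26.7% of all genes (15.5% with soy plus E2 higher and 11.2% with it lower). The change was over 1 log2 unit in 30 of the 44, 19 higher and 11 lower. Smallest adjusted p was 0.0301, and 2888 genes had an unadjusted p under 0.05. None of the 288 transcripts set apart for liver and muscle was among the 44, and 57 genes passed when these were left out of the test.

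The number of calls rested on single arrays. Leaving out casein pool 1, soy pool 2 or soy pool 3 gave 0 calls, with smallest limma adjusted p of 0.0687, 0.0530 and 0.0519. The soy pools enter this comparison only through the shared spread. Without either of them the changes stayed the same, and all 44 genes kept an unadjusted p under 0.05. Leaving out casein pool 3 gave 2 (Mlxipl and Zeb2) and leaving out casein pool 2 gave 3 (Atg10, Clec3b and Ctnnbl1, none of them among the 44). In the soy plus E2 group 1 call was left when pool 1 (Cldn10) or pool 2 (Aldh3a1, not among the 44) was dropped, while 734 were made when pool 3 was dropped. Dropping casein plus E2 pool 1 left 6. A called gene stayed called in 2 to 6 of the 12 leave-outs, with Mlxipl at 6, and none in all 12. The arrays also split by transcripts spiked in at hybridisation. All casein pools and soy plus E2 pool 2 were above 0, and soy plus E2 pools 1 and 3 were below. Casein pool 2 stood apart at 1.11, against -0.22 to 0.26 on the other arrays, and casein pool 3 was just above 0 at 0.06. The part of the high spike-in mean in the gene values of casein pool 2 was not tested. A model that holds the split called 9 genes, of which Phlda1, Shc4 and Zeb2 (3 genes) belong to the 44, and within the arrays above 0, which hold 1 soy plus E2 pool, 0 passed (1690 at an unadjusted p under 0.05).

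Among genes of the estrogen response, those of amphiregulin and the progesterone receptor rose. Areg stood at -1.01, -2.74 and -1.26 in casein pools 1 to 3 and at 2.52, 2.54 and 1.01 in soy plus E2 pools 1 to 3. All casein pools were below all soy plus E2 pools, with casein pool 2 the lowest and soy plus E2 pool 3 the nearest to casein. The change was 3.70 ± 0.53 (log2 change ± standard error of the fit, limma adjusted p = 0.0301), and it was 3.16 without casein pool 2, 4.21 without soy plus E2 pool 3 and 4.22 within the arrays with spike-ins above 0. Pgr, the progesterone receptor gene, stood at -0.82, -1.37 and -1.07 in casein and at 2.21, 2.24 and 0.82 in soy plus E2. It rose by 2.85 ± 0.35 (limma adjusted p = 0.0301).

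Of 28 estrogen response genes these were the 2 that passed (7.14%, against 0.309% of all genes), both higher, and the list's median change was 0.08. This list and those below were written with earlier results of these data known. Areg, Cxadr, Cpa1, Mlxipl and Tpsab1 were given with the comparison, so the called shares of lists that hold them show little. Greb1, an estrogen receptor cofactor and target, had 1.06 ± 0.19 and did not pass (limma adjusted p = 0.0644), and its probe sets disagreed at -0.03 and 2.14. Receptor genes Esr1 (-0.23 ± 0.15) and Esr2 (0.02) did not pass, nor did Ccnd1, the cyclin D1 gene, at 0.37 ± 0.24. Igf1, a growth factor gene of the stroma, had -1.54 ± 0.38 (limma adjusted p = 0.0927), with all soy plus E2 pools below all casein pools. Among 14 genes of epidermal growth factor receptor ligands and receptors Areg alone passed (7.14%, against 0.309% of all genes), and the median was 0.20. Changes of the other ligand genes ran from -0.74 for Nrg4, a neuregulin, to 0.49 for Tgfa, with no overlap between the groups for either, and the receptor gene Erbb2 had 0.44.

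**Figure D2:**
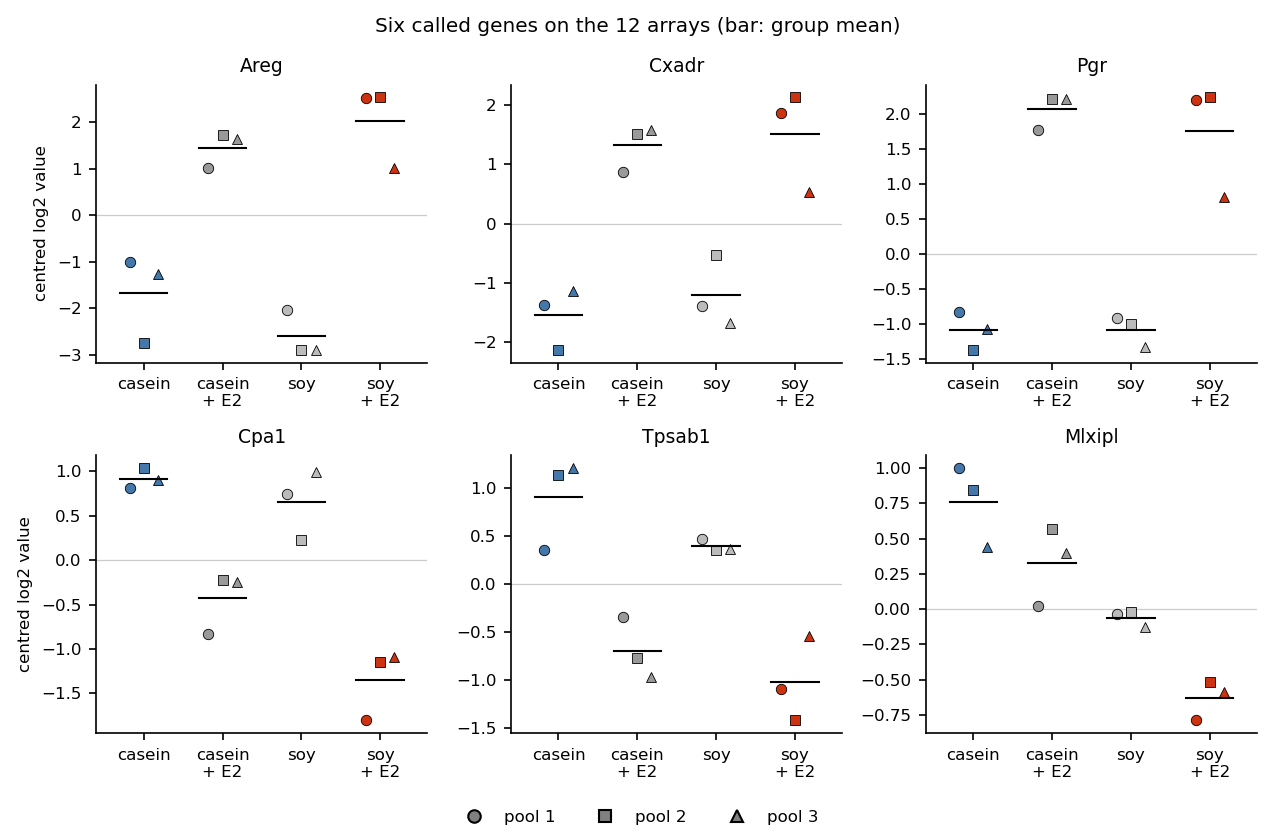
Centred log2 values (y axis) of Areg, Cxadr, Pgr, Cpa1, Tpsab1 and Mlxipl on the 12 arrays by group (x axis), with each pool as a point and the mean of 3 arrays as a bar. The 3 soy plus E2 pools lie above the 3 casein pools in the upper row, where Areg ranges from 1.01 to 2.54 against -2.74 to -1.01, and below them in the lower row.

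For the genes that head the comparison, the 250 bases before the annotated start are shown from RefSeq (GRCr8) for 4 of the 5 genes the comparison was set up around (Areg, Cpa1, Mlxipl and Tpsab1) and for the clock gene Nr1d2. They were picked as examples from different gene groups, not by rank of change. Capitals mark matches on either strand. The cyclic AMP response element was searched as TGACGTCA. A nuclear receptor core motif was searched as AGGTCA. For the E-box, a motif bound by basic helix-loop-helix factors, the letters were CACGTG. The CCAAT box was searched by the letters of its name. The full palindromic estrogen response element was searched too, and it can overlap the nuclear receptor core motif. Areg lies at chr14:17265642-17265891, minus strand. Cpa1 lies at chr4:60224551-60224800, plus strand. Mlxipl lies at chr12:27213661-27213910, minus strand. Tpsab1 lies at chr10:14867303-14867552, minus strand. Nr1d2 lies at chr15:9954784-9955033, plus strand. Each is written 5′ to 3′ on the gene's own strand.
Areg: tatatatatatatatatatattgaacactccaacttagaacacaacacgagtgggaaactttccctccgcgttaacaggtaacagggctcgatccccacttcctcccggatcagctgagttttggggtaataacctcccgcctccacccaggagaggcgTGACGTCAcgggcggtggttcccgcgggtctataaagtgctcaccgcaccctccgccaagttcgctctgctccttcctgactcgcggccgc
Cpa1: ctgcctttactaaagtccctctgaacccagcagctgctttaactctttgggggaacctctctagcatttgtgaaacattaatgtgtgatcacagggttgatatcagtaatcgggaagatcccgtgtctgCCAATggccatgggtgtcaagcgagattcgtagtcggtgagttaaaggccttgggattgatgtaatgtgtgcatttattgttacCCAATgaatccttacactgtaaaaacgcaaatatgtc
Mlxipl: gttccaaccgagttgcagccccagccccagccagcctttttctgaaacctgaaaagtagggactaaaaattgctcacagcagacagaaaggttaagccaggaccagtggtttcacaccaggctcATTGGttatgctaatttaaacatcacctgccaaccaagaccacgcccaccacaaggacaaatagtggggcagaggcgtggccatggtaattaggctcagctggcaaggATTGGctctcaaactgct
Tpsab1: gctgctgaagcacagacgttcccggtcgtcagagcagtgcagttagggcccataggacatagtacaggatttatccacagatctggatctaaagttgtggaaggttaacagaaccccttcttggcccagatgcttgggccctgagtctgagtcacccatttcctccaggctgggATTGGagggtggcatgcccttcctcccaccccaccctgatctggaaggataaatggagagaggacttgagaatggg
Nr1d2: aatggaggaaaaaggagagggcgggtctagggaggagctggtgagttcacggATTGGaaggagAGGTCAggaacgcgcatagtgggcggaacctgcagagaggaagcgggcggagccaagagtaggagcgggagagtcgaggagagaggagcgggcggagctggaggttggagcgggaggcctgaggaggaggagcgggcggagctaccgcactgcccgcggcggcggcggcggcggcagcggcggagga

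In Areg the cyclic AMP response element lies from -91 to -84 relative to the start. Of the 44 called genes 35 had a promoter in the table, and 2 of these (5.71%), Areg and Dguok, held that element, which 1.7% of all 27457 promoters and 2.64% of the 11733 promoters of measured genes hold. The Nr1d2 window held the core motif AGGTCA, present in 3 of the 35 (8.57%), in 13.7% of all promoters and in 11.3% of those of measured genes. CCAAT boxes were present in Cpa1, Mlxipl, Tpsab1 and Nr1d2, in 11 of the 35 (31.4%), in 34.3% of all and in 35.1% of measured genes. An E-box was found in 3 of the 35 (8.57%, against 5.79% of all and 7.82% of measured genes). The full estrogen response element was in none of the 35 windows, in 0.0219% of all and in 0.017% of measured genes. These matches describe letters in a window and not bound sites.

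Genes of milk and secretion were the list with the highest median among epithelial lists. Of 18 measured, 2 passed (11.1%, against 0.309% of all genes), Fabp3 and Lpo, both higher, and the median was 1.05. Fabp3, a fatty acid binding protein of the secretory cell, stood at -0.98, -1.70 and -0.99 in casein and at 2.41, 2.87 and 0.98 in soy plus E2, and rose by 3.31 ± 0.44 (limma adjusted p = 0.0301). Lpo, the milk lactoperoxidase, rose by 2.17 ± 0.31. Casein pools lay between -0.87 and -0.59 for Lpo, and soy plus E2 pools between 0.59 and 1.97.

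The classical milk protein genes did not pass. Wap, the whey acidic protein gene, had the largest change of the list at 4.84 ± 0.83 (limma adjusted p = 0.0597). It stood at -1.31, -4.42 and -1.22 in casein and at 3.27, 3.09 and 1.22 in soy plus E2, and its change was 3.79 without casein pool 2. Csn2, the beta-casein gene, had 3.38 ± 1.18 (limma adjusted p = 0.159), with -5.98 in casein pool 2 against -0.84 and -0.64 in the other casein pools, and 1.64 without that pool. Glycam1 had 4.21, the kappa-casein gene Csn3 1.09 and the secretory transcription factor gene Elf5 1.63. All 18 changes were above 0, and in 13 genes the soy plus E2 pools were all above the casein pools (15.5% of all genes). The low luminal mean of casein pool 2 moves with these values, and its part in them was not tested.

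Among 26 epithelial junction genes 2 passed (7.69%, against 0.309% of all genes), both higher, and the median was 0.56. Cxadr codes for the coxsackievirus and adenovirus receptor, a cell adhesion protein of tight junctions. It stood at -1.37, -2.13 and -1.13 in casein and at 1.87, 2.13 and 0.53 in soy plus E2. Its change was 3.06 ± 0.46 (limma adjusted p = 0.0337) and 2.76 without casein pool 2. Cldn10, a claudin of ion-selective junctions, was even across the casein pools (-0.51, -0.52 and -0.48) and high in soy plus E2 (2.19, 1.28 and 0.99), and rose by 1.99 ± 0.25. Other junction genes did not pass, among them the desmosomal Dsg2 (1.49), Igsf5 (1.56), Cldn7 (1.20), Cldn8 (1.12) and occludin Ocln (0.83). Changes below 0 were measured for Cldn1 (-0.46, no overlap), Tjp1 (-0.18) and Pard3 (-0.035). E-cadherin gene Cdh1 had 0.19 ± 0.23, and -0.057 without casein pool 2.

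Of 23 luminal genes Areg was the 1 that passed (4.35%, against 0.309% of all genes), and the median was 0.47. Luminal regulators Tfap2c (1.40) and Elf5, and the surface marker Cd24 (1.61), did not pass, nor did the keratin genes Krt8 (0.47) and Krt18 (0.48). In 7 of the 23 all soy plus E2 pools lay above all casein pools (15.5% of all genes). Changes below 0 were found in 6 of the 23. In 4 of these 6, Krt7 (-0.89), Tspan8 (-0.46), Foxa1 (-0.28) and Kit (-0.27), all soy plus E2 pools lay below all casein pools (11.2% of all genes). No basal gene of 17 passed (median 0.20), with Krt14 at 1.04 ± 0.28 (limma adjusted p = 0.107). Of the 17 changes 6 were below 0, among them Oxtr, the oxytocin receptor gene, at -1.10 and the vimentin gene Vim at -0.50. Of 38 cell division genes none passed, the median was 0.47, and 28 had all soy plus E2 pools above all casein pools (15.5% of all genes). Mki67, a marker of cycling cells, had 0.79 ± 0.24 (limma adjusted p = 0.122), the kinase gene Cdk1 0.73 and cyclin A2 gene Ccna2 0.74.

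Further genes that rose came from outside the lists. Chrdl2, which codes for a chordin-like inhibitor of bone morphogenetic proteins, stood at -1.17, -0.93 and -0.75 in casein and at 2.45, 2.68 and 0.75 in soy plus E2, and rose by 2.91 ± 0.41. Msln, the mesothelin gene, rose by 2.14 ± 0.29 and Ankrd34b by 2.13 ± 0.31, both with soy plus E2 pool 3 the lowest of its group. The cytokine gene Il18 rose by 1.47, Phlda1 by 1.51, C2h3orf80 by 1.54, Mcpt9, of the mast cell protease gene family, by 1.34, and the forkhead gene Foxq1 by 0.93. Unlike most mast cell genes described further down, Mcpt9 was higher in all 3 soy plus E2 pools (0.37 to 1.0) than in casein (-0.93 to -0.41).

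Some smaller changes passed as well. Erich2 stood at -0.02, 0.05 and -0.15 in casein and at 1.02, 1.41 and 0.91 in soy plus E2 and rose by 1.15 ± 0.16. Shc4, an adaptor protein gene of receptor tyrosine kinases, rose by 1.19 ± 0.17 and Cdc73, of the RNA polymerase II associated PAF complex, by 1.20 ± 0.17. Ccl5, a chemokine gene of T cells and other cells, stood at -0.50, -0.20 and -0.60 in casein and at 0.75, 0.67 and 0.55 in soy plus E2 and rose by 1.09 ± 0.17. Serpinb9, a granzyme B inhibitor gene, rose by 0.80, the amino acid transporter gene Slc7a5 by 0.71, Zcchc10 by 0.78, Pus7l by 1.01, Tmem35a by 1.13 and Rnf113a1 by 0.55.

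The mean of the lymphocyte genes was below 0 on all 6 arrays with spike-ins above 0 and above 0 on the other 6, and its part in the change of Ccl5 was not tested. Of 20 lymphocyte genes none passed, with a median change of 1.43 and all 20 above 0. The list mean was -1.15 to -0.89 in the casein pools and 1.17 and 0.72 in soy plus E2 pools 1 and 3, but -0.76 in soy plus E2 pool 2. Cd3e, a T-cell receptor component gene, stood at -0.82 there and at 1.90 and 1.21 in the other pools of its group. Ccl5 in that pool, at 0.67, lay between its values in pools 1 and 3.

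Most genes of fat and lipid synthesis had changes below 0, and Mlxipl and Retsat passed. Mlxipl codes for ChREBP, a glucose-responsive transcription factor that drives genes of fatty acid and triglyceride synthesis. It stood at 1.0, 0.84 and 0.44 in casein and at -0.79, -0.52 and -0.59 in soy plus E2. It fell by 1.39 (-1.39 ± 0.16, limma adjusted p = 0.0301), and the groups were separated by more than the spread within either. Of 29 genes of the Mlxipl and fatty acid synthesis list it was the 1 that passed (3.45%, against 0.309% of all genes). Of the 29 changes 26 were below 0, with a median of -0.63. Pnpla3, a lipid droplet protein gene, had -2.24, the acyltransferase genes Agpat2 and Dgat2 -1.64 and -1.49, Thrsp -1.16 and fatty acid synthase gene Fasn -0.72 ± 0.21 (limma adjusted p = 0.115). In 10 of the 29 all soy plus E2 pools were below all casein pools (11.2% of all genes), and Fasn in soy plus E2 pool 3 (-0.02) lay close to casein pool 3 (-0.00).

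Retsat, a retinol saturase of fat cells, stood at 0.57, 0.56 and 0.22 in casein and at -2.04, -1.94 and -0.98 in soy plus E2 and fell by 2.10 (-2.10 ± 0.33, limma adjusted p = 0.0410). It was the 1 of 25 white adipocyte genes that passed (4%, against 0.309% of all genes), and the list's median was -1.02. Adiponectin gene Adipoq had -1.37 ± 0.39 (limma adjusted p = 0.115), with 0.02 in soy plus E2 pool 3, above casein pool 3 at -0.02. Adrb3, the beta-3 adrenergic receptor gene, had -2.27, the leptin gene Lep -1.88 and Pck1 -1.84, and none of these passed. Changes above 0 were measured for 3 of the 25, Orm1 (1.21), Cfd (0.18) and Angptl4 (0.18). In 9 of the 25 all soy plus E2 pools were below all casein pools (11.2% of all genes). The list mean was 0.27, 0.67 and 0.06 in casein and -1.12, -0.79 and -0.02 in soy plus E2, so pool 3 of each group lay nearest to the other. Fitm2, which acts in lipid droplet formation, fell by 1.30, the ceramide synthase gene Cers6 by 1.27 and Apln, which codes for the peptide apelin, by 1.0.

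The cholesterol synthesis list had 2 of 19 genes called (10.5%, against 0.309% of all genes), both lower, and a median of -0.49. Nsdhl, a sterol dehydrogenase gene, stood at 0.62, 0.98 and 1.0 in casein and at -0.90, -0.57 and -0.17 in soy plus E2, and fell by 1.41 (-1.41 ± 0.23). Pmvk, the phosphomevalonate kinase gene, was even within groups (0.48 to 0.62 against -0.09 to -0.02) and fell by 0.59 (-0.59 ± 0.09). Insig1, a sterol sensor gene, had -1.86, Cyp51 -0.87 and Msmo1 -0.65 and did not pass. In 13 of the 19 all soy plus E2 pools were below all casein pools (11.2% of all genes). Abca1, the cholesterol exporter gene, fell by 0.70 (-0.70 ± 0.09), although its 4 probe sets disagreed, at -2.21, -1.14, 0.16 and 0.39.

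Cpa1, Retsat and Tpsab1 had the largest falls of the called genes. Cpa1 codes for carboxypeptidase A1, a digestive enzyme known from the pancreas. It stood at 0.81, 1.04 and 0.90 in casein and at -1.81, -1.14 and -1.09 in soy plus E2, and fell by 2.27 (-2.27 ± 0.25, limma adjusted p = 0.0301). Of 24 pancreatic acinar genes it was the 1 that passed (4.17%, against 0.309% of all genes), and the list's median was -0.01. Since Cpa1 was given with the comparison, that share shows little. Gp2, a membrane protein gene of the acinar granule, had -2.49 ± 0.73 (limma adjusted p = 0.118), with 2.37, 1.55 and 0.30 in casein and -2.41, -0.19 and -0.65 in soy plus E2. Trypsinogen gene Prss1 (0.01) and the lipase gene Pnlip (-0.14) had changes near 0.

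Tpsab1 codes for mast cell tryptase. It stood at 0.35, 1.14 and 1.21 in casein and at -1.10, -1.43 and -0.54 in soy plus E2, and fell by 1.92 (-1.92 ± 0.27, limma adjusted p = 0.0301). Among 22 mast cell genes it alone passed (4.55%, against 0.309% of all genes), and the median was -0.24. Mast cell proteases and receptors did not pass, with Mcpt1l1 at -2.02, carboxypeptidase A3 gene Cpa3 at -1.93, the IgE receptor gene Fcer1a at -1.88, Cma1 at -1.55 and the histamine-forming enzyme gene Hdc at -1.26. In 11 of the 22, these 5 included, all soy plus E2 pools were below all casein pools (11.2% of all genes). The fall was not shared by the whole list. Changes above 0 were measured for 3 of the 22, Mcpt3 (0.11), Mcpt10 (0.06) and Mitf (0.01). The protease genes Mcpt4 (-0.05), Mcpt8 (-0.06) and Mcpt1 (-0.15) changed little. Soy plus E2 pool 3 lay nearest to casein for Tpsab1, Cpa3, Fcer1a, Cma1, Mcpt1l1 and Hdc.

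Circadian clock genes had 3 of 16 called (18.8%, against 0.309% of all genes), 1 higher and 2 lower, with a median of -0.10. The clock is a transcriptional loop in which Bmal1 and Clock drive repressors of the Per, Cry and Nr1d families. The sample details used here hold no time of day of sacrifice, and its part in these values was not tested. Nr1d2, which codes for the nuclear receptor REV-ERB beta, stood at -0.24, -0.28 and -0.35 in casein and at 0.66, 0.45 and 0.73 in soy plus E2, and rose by 0.90 ± 0.14 (limma adjusted p = 0.0410). Its 3 probe sets changed by 0.40, 1.10 and 1.21. Cry1, a cryptochrome repressor gene, stood at -0.00, 0.52 and 0.16 in casein and at -0.97, -0.79 and -0.60 in soy plus E2, and fell by 1.01 (-1.01 ± 0.14). Nfil3, a repressor of the output genes, fell by 0.88 (-0.88 ± 0.14), from 0.42 to 0.62 in casein to -0.44 to -0.28 in soy plus E2.

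Other clock genes did not pass. Nr1d1 had 1.93 ± 0.39 (limma adjusted p = 0.0809) and stood at 1.75, 1.13 and 2.13 in soy plus E2. Dbp, an output gene, had 1.02, Per3 0.49, Per1 0.35, Per2 -0.34 and Bmal1 -0.61, each with no overlap between the groups, although the gap was small for Per1 (0.03 in casein pool 1 and 0.04 in soy plus E2 pool 3) and for Per2. Against casein plus E2, the soy plus E2 pools had Nr1d1 at 1.76, Dbp at 1.35, Per3 at 0.70, Nr1d2 at 0.76 and Cry1 at -0.61, and none of these differences passed (smallest limma adjusted p of the 5 was 0.363, for Dbp).

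**Figure D3:**
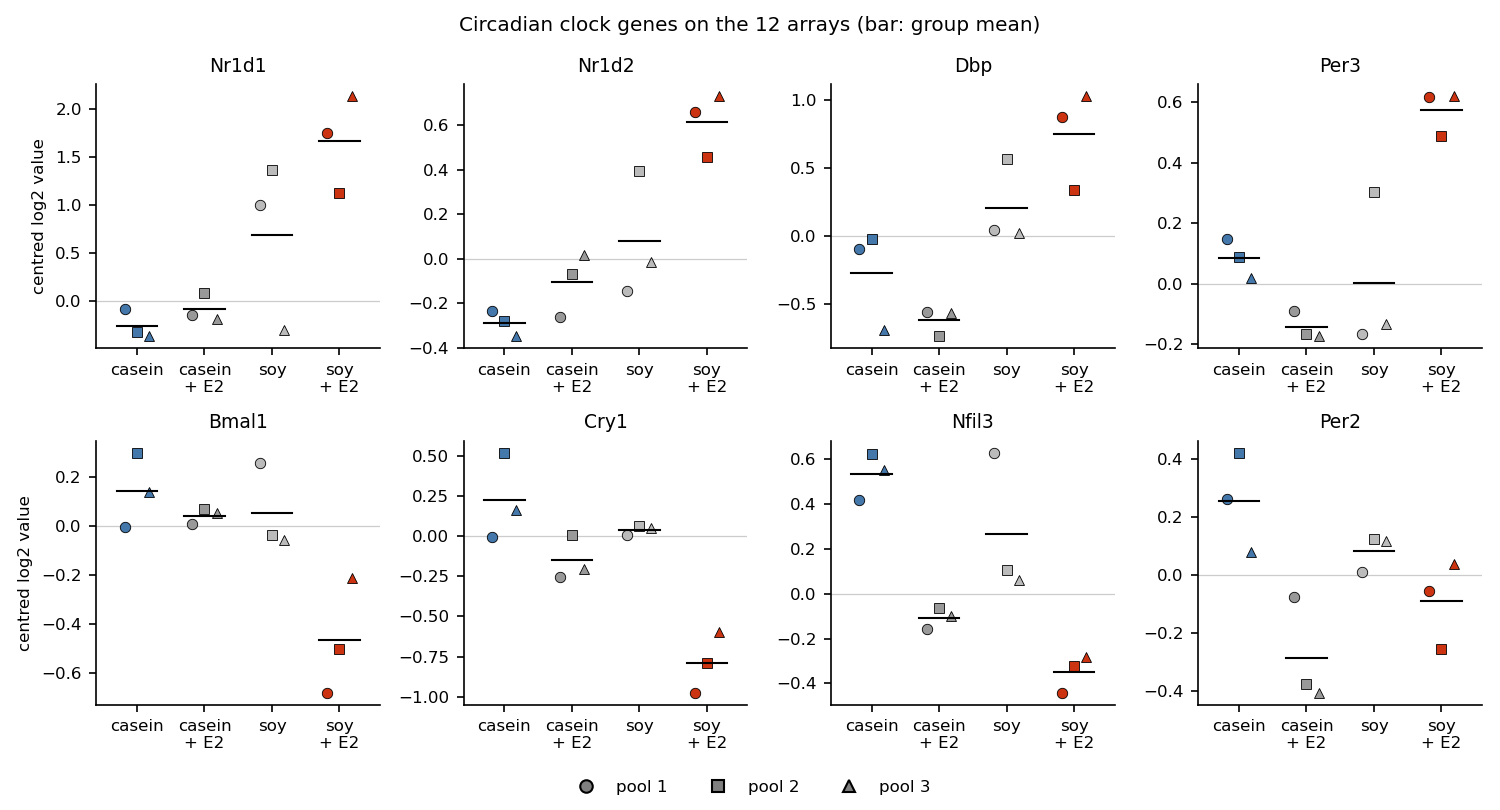
Centred log2 values (y axis) of 8 circadian clock genes on the 12 arrays by group (x axis), with each pool as a point and the mean of 3 arrays as a bar. Nr1d2 is 0.45 to 0.73 in soy plus E2 and -0.35 to -0.24 in casein, and Cry1 is -0.97 to -0.60 in soy plus E2 and -0.00 to 0.52 in casein.

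Among the lower genes outside the lists, Dguok, the mitochondrial deoxyguanosine kinase gene, fell by 1.52 (-1.52 ± 0.24) and was even within groups (0.41 to 0.53 against -1.10 to -0.99). Its 2 probe sets disagreed, at -0.11 and -2.92, and it was the 1 gene called when the casein and soy plus E2 arrays were fitted alone. Zeb2, a zinc finger repressor gene, stood at 0.67, 0.59 and 0.29 in casein and at -0.40, -0.42 and -0.38 in soy plus E2 and fell by 0.92 (-0.92 ± 0.11). All 5 of its probe sets changed downward, from -2.18 to -0.35. The chondroitin sulfate synthesis gene Csgalnact1 fell by 1.31, Limch1 by 1.11, Cmbl by 1.0 and Kcnj11, a subunit gene of the ATP-sensitive potassium channel, by 0.74, with probe sets of Kcnj11 from -1.21 to -0.18.

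The remaining lists held no called gene, apart from Fabp3. The brown adipocyte list of 17 also holds Fabp3 (1 called, 5.88%, against 0.309% of all genes, median -0.04). Medians were -0.37 for 19 endothelial genes, -0.36 for 40 extracellular matrix genes, -0.33 for 7 erythroid genes, -0.25 for 21 insulin and growth factor genes, -0.14 for 23 fatty acid oxidation genes, -0.05 for 30 endoplasmic reticulum genes, 0.09 for 18 macrophage genes and 0.21 for 24 oxidant and aryl hydrocarbon response genes. Among erythroid genes Alas2, the heme synthesis enzyme gene of red cells, had -1.81 ± 0.32 (limma adjusted p = 0.0638) and Hbb, a globin gene, -1.76. Mmp12, the macrophage elastase gene, had 2.17, with 2.87 in soy plus E2 pool 1. Aldh3a1, an aldehyde dehydrogenase gene of the aryl hydrocarbon response, had 2.14 ± 0.65 (limma adjusted p = 0.127). It stood at 3.05 and 2.67 in soy plus E2 pools 1 and 3 and at -0.03 in pool 2, which is the pool with low lymphocyte genes and spike-ins above 0.

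**Figure D4:**
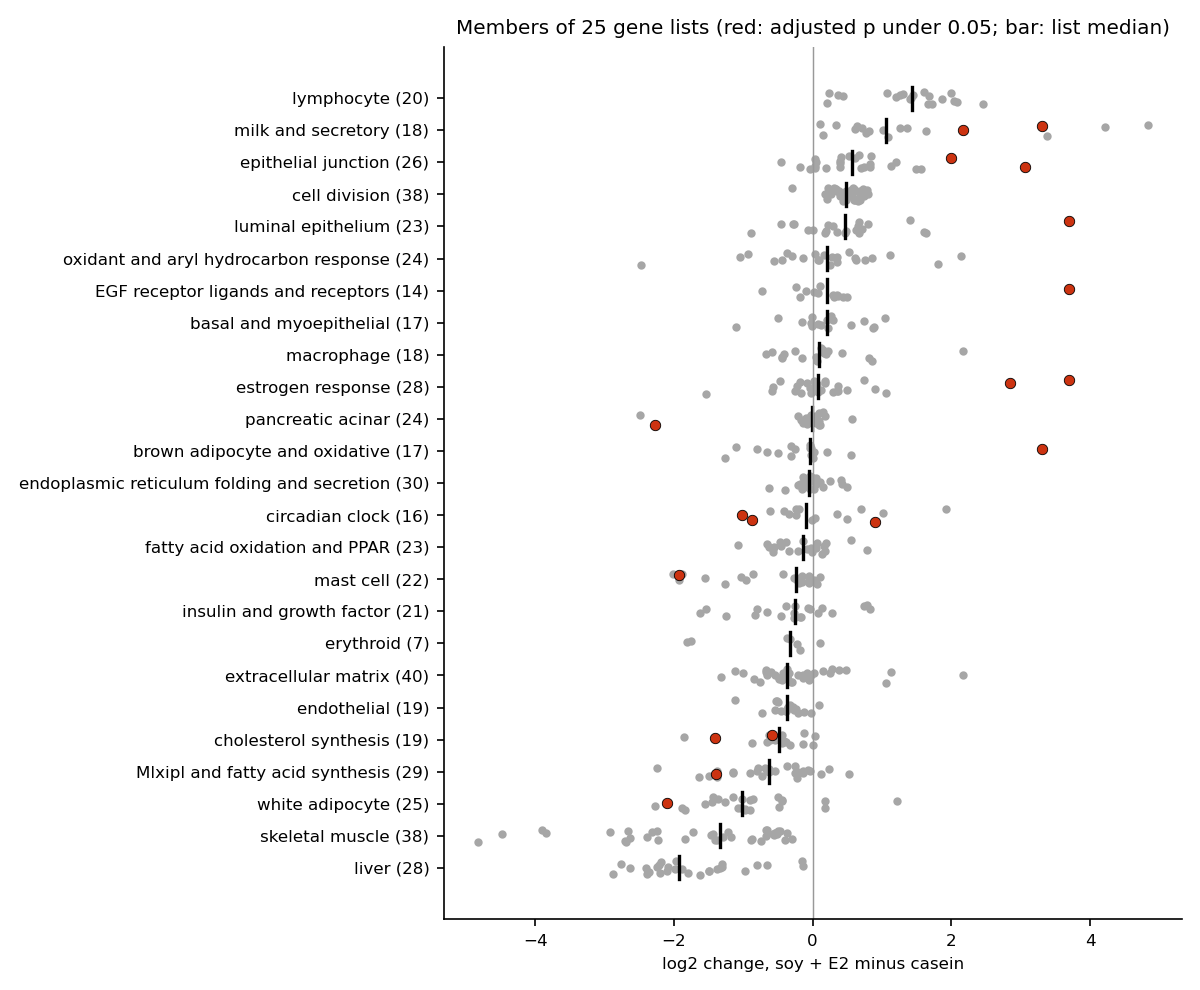
Log2 change of soy plus E2 against casein (x axis) for the members of 25 gene lists (y axis, number measured in brackets), with genes past the test in red and the list median as a bar. Medians run from -1.92 for liver and -1.34 for skeletal muscle, which hold no called gene, to 1.05 for milk and secretory and 1.43 for lymphocyte genes.

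The combined treatment was then set beside each treatment alone, measured against the same casein pools. E2 alone called 346 genes (2.43%), 211 higher (1.48%) and 135 lower (0.95%), and soy alone called 0 (0%, with 1472 at an unadjusted p under 0.05, limma). Neither count was refitted with arrays left out. That of the combined treatment went from 44 to 734 without soy plus E2 pool 3, so the counts do not rank the treatments. Because these comparisons share the casein pools, their values are given side by side and no overlap is drawn. Pgr had 3.09 with E2 alone, 0.01 with soy alone and 2.85 with both. Areg had 3.02, -0.93 and 3.70, Cpa1 -1.45, -0.27 and -2.27, and Tpsab1 -1.51, -0.51 and -1.92, in the same order. For Mlxipl the change was -0.51 ± 0.18 with E2 alone (adjusted p = 0.156), -0.82 ± 0.16 with soy alone and -1.39 ± 0.16 with both, of which the last passed. Abca1 had -0.14, -0.33 and -0.70, and Cry1 -0.40, -0.19 and -1.01, likewise passing with both treatments together.

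Whether the combined change differed from the sum of the single changes was tested as a contrast of its own. No gene passed (0%, smallest limma adjusted p = 0.141, 929 at an unadjusted p under 0.05). For Mlxipl the departure from the sum was -0.06 ± 0.24, and for Tpsab1 it was 0.10 ± 0.41. Areg had the largest departure above 0 among the 44 (1.6 ± 0.80, limma adjusted p = 0.778). Erich2 had 0.00 with E2 alone, -0.04 with soy alone and 1.15 with both, a departure of 1.19 ± 0.24 (limma adjusted p = 0.477). Shc4 had 0.39, -0.61 and 1.19, with a departure of 1.41 ± 0.26 (limma adjusted p = 0.389), and Cldn10 had 0.66, 0.17 and 1.99, with 1.15 ± 0.38. The largest below 0 was that of Lpo (4.34, -0.12 and 2.17, departure -2.05 ± 0.46, limma adjusted p = 0.528). Departures below 0 were also measured for Cdc73 (1.17, 1.06 and 1.20, departure -1.03 ± 0.26), Pus7l (1.05, 0.91 and 1.01, departure -0.95 ± 0.24) and Zcchc10 (1.52, 0.52 and 0.78, departure -1.26 ± 0.16).

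Against casein plus E2, which differs from soy plus E2 in the diet alone, 1 gene passed (0.00703%). It was Ppif, the mitochondrial cyclophilin gene, lower by 1.23 (-1.23 ± 0.12, limma adjusted p = 0.0324). E2 alone had raised Ppif by 1.43, while soy plus E2 against casein had 0.19 ± 0.11. Against soy alone, which differs in the hormone, 31 genes passed (0.218%), 26 higher (0.183%) and 5 lower (0.0352%). That count was not refitted with arrays left out. Lpo was lower in soy plus E2 than in casein plus E2 by 2.16 (-2.16 ± 0.34), which did not pass (limma adjusted p = 0.191). Pgr (-0.24 ± 0.39) and Areg (0.68 ± 0.60) did not pass either, and their errors are too wide to show that the groups were alike.

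**Figure D5:**
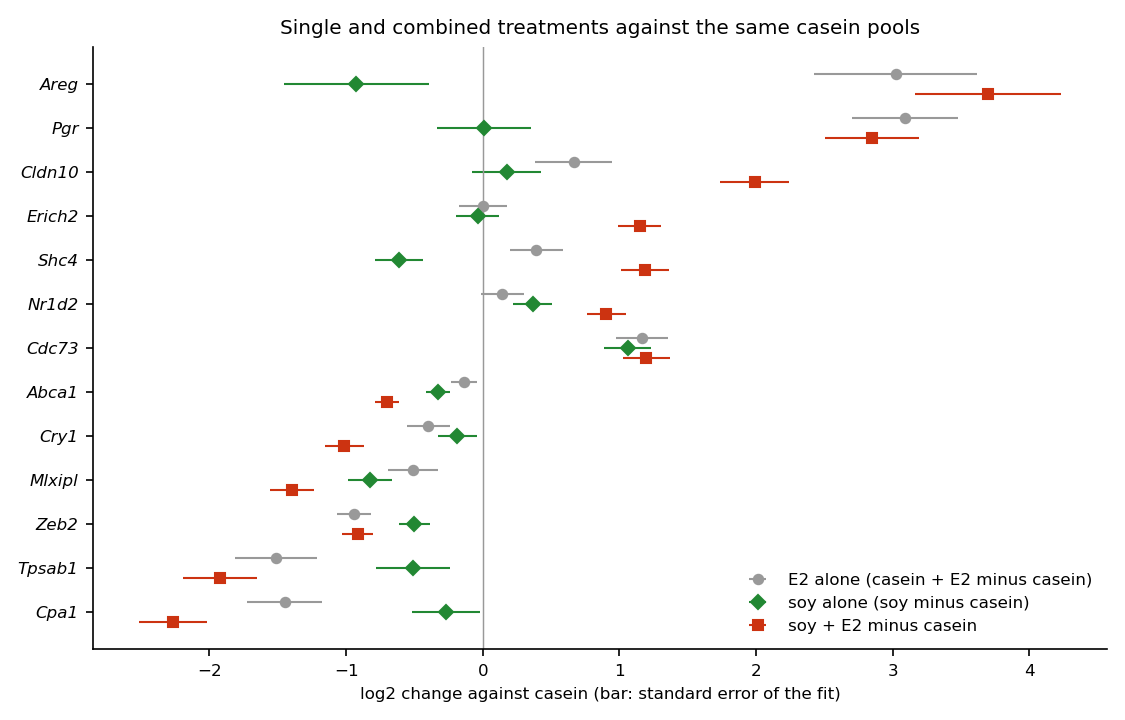
Log2 change against casein (x axis, bar: standard error of the fit) for 13 called genes (y axis) with E2 alone, soy alone and both. Erich2 is near 0 with each treatment alone and at 1.15 with both, Cdc73 is 1.06 to 1.20 in all 3 comparisons, and Mlxipl is -0.51, -0.82 and -1.39.

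Transcripts of other tissues were kept apart. Of 28 liver genes none passed, and the median change was -1.92. A further rule took genes whose casein pool 3 value was at least 1 log2 unit above every other array, which gave 212 genes, 25 of them on the liver list, with a median change of -1.23. Fabp1, the liver fatty acid binding protein gene, stood at 8.01 in casein pool 3 and between -0.20 and 0.24 in the other pools compared. Of 38 skeletal muscle genes none passed, and the median was -1.34. Fast myosin gene Myh4 stood at 2.97, 5.10 and 0.71 in casein and at -1.90, -2.18 and -1.63 in soy plus E2. Correlation with the muscle mean (r of at least 0.9 over 12 arrays) marked 63 genes, 28 of them on the muscle list. In all 288 genes were set apart, and none of them was called. The rule for the 212 picks genes with 1 high casein pool and so a wide casein spread. Such a spread works against a call, so the absence of calls shows little.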

How the data were processed

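Gene expression was measured on 12 arrays of pooled mammary gland RNA, 3 in each of 4 groups taken from the sample titles. The deposited table holds log2 values, read as log2 from their range (widest range of a probe set 9.85), each probe set centred on its median. The submitters' processing notes name GCOS without a version, while the sources used here do not give summarisation, normalization or log base. Array medians lay between -0.0246 and 0.0112, and no further normalization was applied.

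Names came from GEO's platform annotation. Of 31099, 20826 carried 1 gene, 436 several, 9780 were unnamed here and 57 were controls, and 20758 matched the GRCr8 gene table by identifier. Means over probe sets gave 14217 genes, 4525 of them from several probe sets. Of 632 symbols in 25 lists 562 were measured.

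The linear model held 4 group means over 11 samples, leaving 7 residual degrees of freedom (limma 3.58.1, R 4.3.3, eBayes without a trend, two-sided). Named genes were the 5 genes given with the comparison, the 15 highest and 15 lowest called genes without overlap between the groups (without LOC-type symbols and transcripts set apart), up to 4 called members of each list but liver and muscle, the 10 of smallest p each way and 13 fixed genes. Other called genes, and list members and clock genes that did not pass, were chosen after their values were seen. The members and lists were chosen with earlier results of these data known. On simulated data with independent noise over 14217 genes, a change of 1 log2 unit was found in 77% of 100 genes and one of 2 in 94% of 100, for soy plus E2 against casein, with 12 false calls among the genes left unchanged. The simulation held no shifts shared by many genes of 1 array, such as the liver and muscle transcripts. Its rates therefore need not hold for these data. Alternatives are listed with their effect in the closing section.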

Additional observations from a re-analysis of the deposited data

How the results depend on the processing

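Taken as genes, all 44 kept their direction in each refit, which the absence of overlap between the groups largely fixes, but single probe sets of Abca1 (0.39 and 0.16) went against its fall. The count of 44 became 173 with 12 separate arrays, 1 with the casein and soy plus E2 arrays alone, 254 after quantile normalization, 25 with the probe set of largest SD, 26 genes with every probe set tested, 1176 with array weights, 0 at a minimum change of 1.5-fold (226 at an unadjusted p under 0.05), 9 with a spike-in term and 0 within arrays with spike-ins above 0 (1690 unadjusted). Without casein pools 2 and 3 together, chosen after seeing the data, it was 1 (Clec3b). It was 43 after median centring, 57 without the transcripts set apart and 44 with a robust prior. Leaving out each array in turn gave 0 to 734 calls, and 2579, 2713 and 2903 genes had an unadjusted p under 0.05 in the leave-outs with 0 calls.

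Pool number as a replicate block gave 14 calls, all among the 44. Deviations of equally numbered casein and soy plus E2 pools correlated at 0.08, -0.23 and -0.14 across genes. Soy plus E2 pool 1 correlated best with the casein pool of its own number, while pools 2 and 3 did not. Such deviations also hold the liver and muscle transcripts of single arrays, so they cannot decide whether the numbers pair the samples.

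Against casein plus E2 the count of 1 became 13 with separate arrays, 3 with the block, 6 after quantile normalization, 2 with the probe set of largest SD, 7 with array weights, 2 without the transcripts set apart, and 0 at 1.5-fold, within arrays with spike-ins above 0 or with every probe set tested, and 0 to 3 in the leave-outs. For the departure from the sum the count of 0 became 4 with separate arrays, 1 with the block, 5 with array weights, 1 with the spike-in term and 1 without casein pools 2 and 3. It stayed at 0 in each leave-out. Cdh1, not called, ranged from -0.057 (without casein pool 2) to 0.35 in the leave-outs and was -0.12 without casein pools 2 and 3, and Esr1, not called, reversed to 0.084 without those 2 pools. The cause of these shifts was not tested. Centred values allow no filter on dim probe sets, so whether a called gene lay above background is not known.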
